A study of Danio rerio with 12 samples.

Results

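The RNAs of 7 genes best known from the growing oocyte were followed in early zebrafish embryos. They are the growth factor genes bmp15 and gdf9, the egg coat genes zp3b and zp2.5, the oocyte regulator zar1, the histone chaperone gene npm2a and the steroid enzyme gene cyp17a1. They were chosen by name, each matched exactly 1 gene ID, and together they are 7 of the 33737 gene IDs in each table. Polyadenylated RNA came from whole embryos at 2, 4 and 6 hours post fertilization (hpf). Control embryos are labelled wild type and ddx3xb+/+, and mutant embryos are labelled ddx3xb-/-, which the series text calls a knockout of Ddx3xb, a DEAD-box RNA helicase. The labels name neither the mutation, the genotype of the mothers, nor the number of embryos in a library. Each of the 6 groups has 2 samples, 12 in all, but the authors deposited 1 value per gene and group, as RPKM (reads scaled to gene length and depth). Values below are therefore group values without an SD, no p-value is given, and a difference is described by its size.

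The oocyte builds what the embryo first lives on. While it grows it secretes Bmp15 and Gdf9, ligands of the TGF-beta family that signal to the surrounding follicle cells, and it lays down an egg coat of zona pellucida (ZP) proteins. It also stores RNA for the first cell cycles, when the embryo's own genome is silent, and much of this maternal RNA is cleared after the genome is switched on. Zar1 binds RNA in the oocyte and, in zebrafish, restrains translation of zona pellucida RNAs. Nucleoplasmin, the product of npm2a, handles histones in the egg, and Cyp17a1 is the steroid hydroxylase and lyase that leads from progestins to androgens.

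The series gave 2 checks and 1 measure of error that touch these genes. ddx3xb itself, given as control and then mutant RPKM, stood at 325 and 0.697 at 2 hpf, 318 and 18.8 at 4 hpf, and 194 and 48.8 at 6 hpf, so the label was clearest at 2 hpf. Markers of the embryo's own genes, 10 in all, summed to 3.02 RPKM in controls and to 4.97 in mutants at 2 hpf, 363 and 108 at 4 hpf and 2993 and 1809 at 6 hpf. The 12 libraries held 37.8 to 73.0 M reads, as recovered from the steps between low values. For genes with 20 to 150 reads, the log2 ratio between the 2 libraries of a group had a spread of 0.751 to 1.04 (scaled median absolute deviation). Reads were recovered only for genes under 3 RPKM in at least 3 tables. Each of the 7 oocyte genes was that low in 1 table at most, so their own replicate error is unknown.

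In both genotypes the RNAs of the 7 genes were present at 2 hpf. Between 2 and 4 hpf 0 of 7 moved by 1 log2 or more, on the log2(RPKM + 1) scale used for all log2 differences here. Over all 17053 genes that reached 1 RPKM in 1 table or more, 8.79% were higher and 2.84% lower by that much in controls, and 3.21% and 0.264% in mutants. By 6 hpf 6 of 7 were lower than at 2 hpf in controls by 1 log2 or more and 0 higher, against 35.6% and 24.1% of all genes. In mutants 3 of 7 were lower and 0 higher, against 19.9% and 15.5%. Set against controls at 6 hpf, 5 of the 7 genes stood 1 log2 or more above in mutants and 0 below, where 18.3% of all genes stood above and 8.91% below. With 1 value per group, these counts are of size, not of differences beyond replicate error. They also come from genes picked with earlier results of these data known, so they are no independent evidence of a direction.

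**Figure D1:**
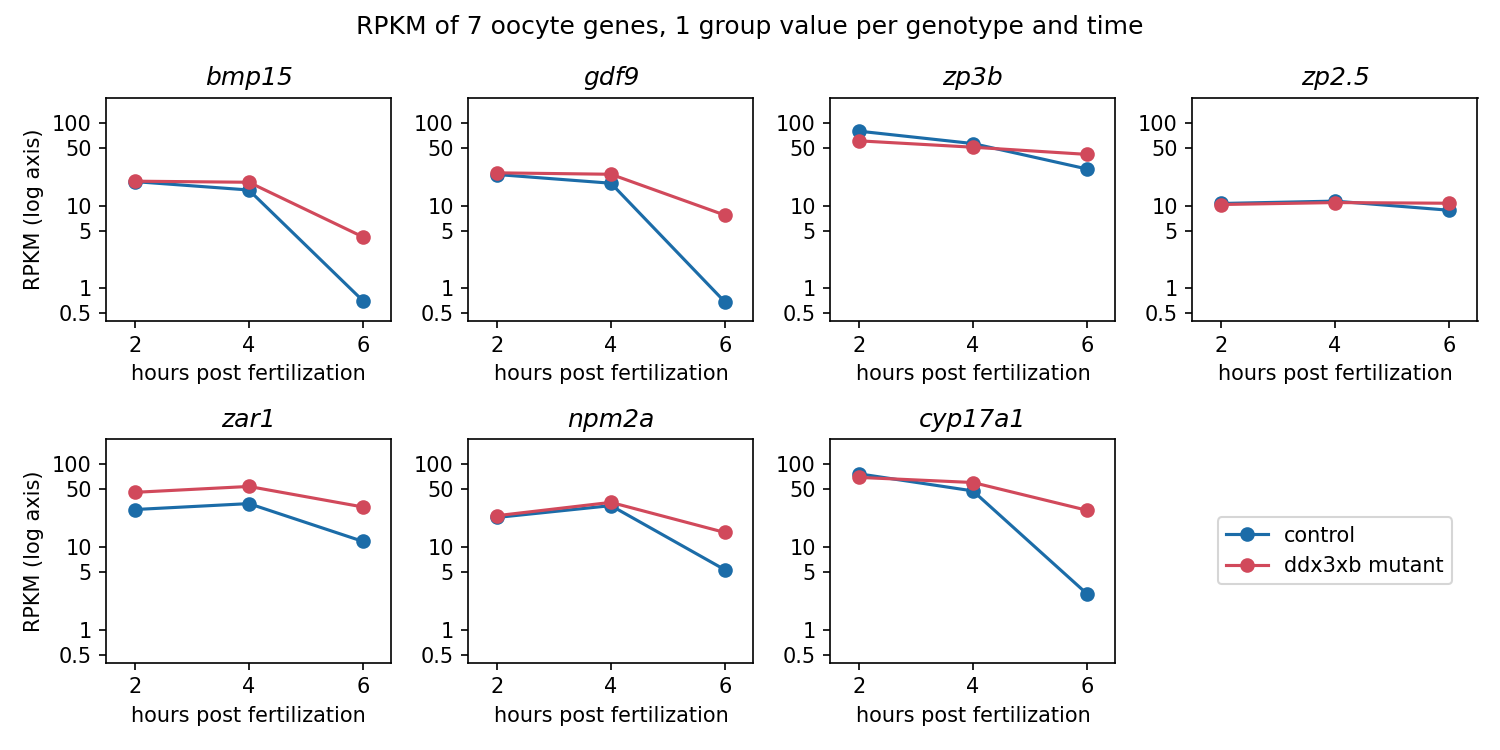
RPKM (log axis) of the 7 genes against hours post fertilization, with 1 deposited group value per point, blue for controls and red for ddx3xb mutants. bmp15, gdf9 and cyp17a1 lie close together in the genotypes at 2 hpf and part at 6 hpf, while zp2.5 stays near 10 RPKM throughout.

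The 2 growth factor genes followed nearly the same course in controls, and in mutants up to 4 hpf. bmp15 (ENSDARG00000037491) had an RPKM of 19.5, 15.5 and 0.710 in controls at 2, 4 and 6 hpf. In mutants it had 19.8, 19.2 and 4.19. The genotypes thus started level, and the mutant value at 6 hpf was 5.90 times that of the control. gdf9 (ENSDARG00000003229) had an RPKM of 23.8, 18.7 and 0.686 in controls, and of 24.9, 24.0 and 7.68 in mutants. Its mutant value at 6 hpf was 11.2 times the control value, and on the log2(RPKM + 1) scale the difference was 2.36, against 1.60 for bmp15. These log2 differences understate the ratios because the control values are below 1.

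Most of the lower level of both growth factor RNAs was reached between 4 and 6 hpf. In controls bmp15 stood at 79.2% of its 2 hpf level at 4 hpf and at 3.64% at 6 hpf, and gdf9 at 78.5% and 2.88%. In mutants bmp15 stood at 97.1% and 21.2%, and gdf9 at 96.1% and 30.8%. In controls the pair was thus nearly gone at 6 hpf, while mutants still held more of the starting level. Among the 8477 genes with an RPKM of at least 5 in both genotypes at 2 hpf, 1.58% had a smaller share left than gdf9 in controls and 11.4% in mutants. For bmp15 this share was 3.56% in mutants, so bmp15 was among the genes with the least left there.

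The 2 egg coat genes did not share this course. zp3b (ENSDARG00000039828), a gene of the ZP3 type, had an RPKM of 79.5, 56.3 and 27.8 in controls and of 60.7, 50.9 and 41.6 in mutants. It was lower in mutants at 2 hpf (log2 difference -0.38) and higher at 6 hpf (0.57), neither past 1 log2. Its level at 6 hpf was 34.9% of that at 2 hpf in controls and 68.6% in mutants. zp2.5 (ENSDARG00000086522), a gene of the ZP2 type, had an RPKM of 10.6, 11.3 and 8.81 in controls and of 10.3, 10.9 and 10.7 in mutants. It was thus nearly flat, with 82.9% of its 2 hpf level left at 6 hpf in controls and 104% in mutants. The difference between genotypes at 6 hpf was 0.25 and turned to -0.02 with quantile normalization. The control change from 4 to 6 hpf was -0.33 as deposited, 0.31 with trimmed-mean rescaling and 0.27 with quantile normalization. Its direction thus depends on the scaling. In the RefSeq gene order of assembly GRCz12tu, zp2.5 stands in a row with zp2.1, zp2.6 and zp2.3. How reads shared between such copies were counted is not given in the sources used here, so the values of single zp2 genes are uncertain.

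The regulator and chaperone genes had higher values at 4 than at 2 hpf in both genotypes. zar1 (ENSDARG00000019706) had an RPKM of 28.3, 33.4 and 11.7 in controls and of 45.7, 53.8 and 30.4 in mutants. It was the one member that was above control by a similar margin at 2 and 4 hpf, with log2 differences of 0.67 and 0.67, before the 1.31 of 6 hpf. npm2a (ENSDARG00000076391) had an RPKM of 22.7, 31.5 and 5.29 in controls and of 23.8, 34.5 and 14.9 in mutants. Its level at 4 hpf was 139% of that at 2 hpf in controls and 145% in mutants, and at 6 hpf 23.3% and 62.7%. Since poly(A) RNA was selected, a higher value at 4 hpf cannot be told apart from a longer poly(A) tail on the same amount of RNA, and the same holds for lower values.

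cyp17a1 (ENSDARG00000033566) had the largest log2(RPKM + 1) difference of the 7 genes at 6 hpf as deposited. Its RPKM was 76.5, 47.5 and 2.71 in controls and 69.2, 60.0 and 27.7 in mutants. The mutant value at 6 hpf was 10.2 times the control value (log2 difference 2.95), so by ratio it came after gdf9. With 3.55% of the 2 hpf level left in controls and 40.0% in mutants, it lay nearer to the growth factor genes than to zp3b and zp2.5. In whole embryos, fewer cells holding an RNA and less of it per cell cannot be told apart.

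**Figure D2:**
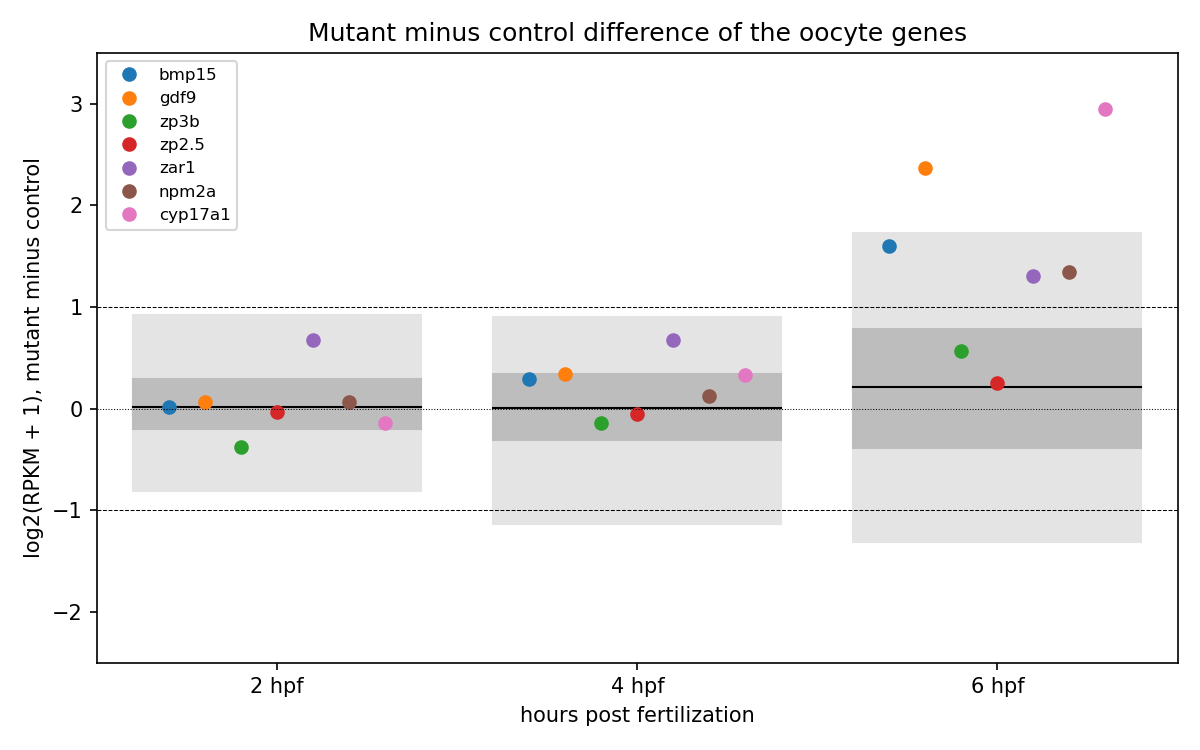
Difference in log2(RPKM + 1), mutant minus control, at 2, 4 and 6 hpf for the 7 genes (coloured points). Grey boxes span the 5th to 95th percentile (light) and the quartiles (dark) of 17053 genes, with the median as a line, and dashed lines mark 1 log2 either way. At 6 hpf cyp17a1 (2.95) and gdf9 (2.36) lie above the light box.

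At 2 and 4 hpf 0 of the 7 genes were past 1 log2 between genotypes in either direction. The differences ran from -0.38 for zp3b to 0.67 for zar1 at 2 hpf, and from -0.14 to 0.67, for the same genes, at 4 hpf. Of all genes, 4.14% lay above and 3.34% below by that much at 2 hpf, and 3.79% and 6.31% at 4 hpf. The median over the 7 genes was 0.02, 0.29 and 1.34 at 2, 4 and 6 hpf, beside 0.01, 0.01 and 0.22 over all genes. The scaling of the tables bears on the last value, since trimmed-mean rescaling moved the median of all genes at 6 hpf to 0.01.

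As deposited, each of the 7 mutant values at 6 hpf lay between the control values at 4 and 6 hpf. The same was true of 65.5% of all genes, and of 90.7% of the 5994 genes that were lower by at least 1 log2 in controls at 6 than at 4 hpf, so it is the usual place for a gene that was lower. This placement depends on the scaling of the tables. With trimmed-mean rescaling the control change of zar1 from 4 to 6 hpf was -0.79, and mutants stood 1.08 above controls at 6 hpf. Its mutant value then exceeded both control values. So did that of zp2.5, whose control change became 0.31, with mutants 0.02 above controls at 6 hpf. For zp3b the control change was -0.31 and mutants stood 0.32 above, so its mutant value was about level with the control value at 4 hpf. The percentages over all genes were not recomputed with rescaling. Between 4 and 6 hpf 5 of the 7 genes were lower by at least 1 log2 in controls and 4 in mutants, where 35.1% and 18.9% of all genes were, and 0 were higher, where 17.3% and 12.3% of all genes were. With trimmed-mean rescaling or quantile normalization the count in mutants was 2. On the log2(RPKM + 1) scale the mutant decrease from 4 to 6 hpf was 59.9% of that of the control for bmp15 and 55.8% for zar1. It was 48.8% for npm2a, 43.0% for gdf9, 29.3% for cyp17a1, 28.4% for zp3b and 7.54% for zp2.5, which was nearly flat in both. The median of this share over the 5994 genes was 49.5%, so the members lay on either side of it. Over the 7 genes it was 43.0%, but these include zp3b and zp2.5, whose control decrease was under 1 log2. The 2 medians thus cover unlike sets and are not to be compared. The summed level of the embryo's own marker genes was also lower in mutants at 4 and 6 hpf, as given above. At 6 hpf krt4 (1465 RPKM in controls, 860 in mutants) and krt8 (938 and 527) weighed most in that sum. Single markers were split there. Of the 10, mutants lay past 1 log2 on the low side for 3 (tbxt, cdx4, sox2) and on the high side for 2 (gsc, mxtx2). At 4 hpf this split was 7 and 0. The part of the embryo's own genes in the differences of the 7 oocyte genes was not tested.

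The difference between genotypes at 6 hpf exceeded that at 2 hpf for all 7 genes, by 0.29 for zp2.5 up to 3.09 for cyp17a1. It did so by at least 1 log2 for 4 of them (bmp15, gdf9, npm2a and cyp17a1), where 18% of all genes did and 10.9% went the other way. For zar1, whose mutant value already stood above control at 2 hpf, the gap grew by 0.64.

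**Figure D3:**
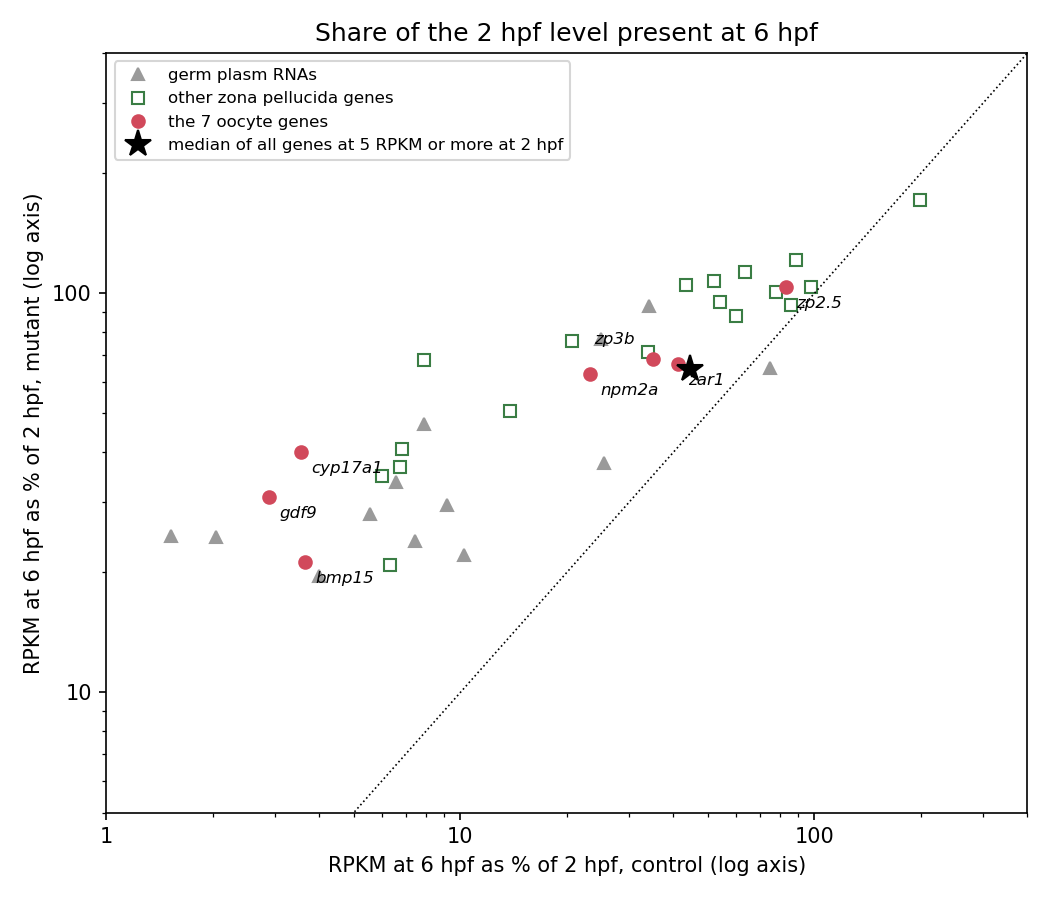
RPKM at 6 hpf as a percentage of that at 2 hpf in controls (horizontal) and mutants (vertical), both on log axes, for the 7 genes (red), 18 other zona pellucida genes (green squares), 13 germ plasm RNAs (grey) and the median of 8477 genes (star, 44.6% and 64.7%). The dotted line marks equal shares, and gdf9, cyp17a1 and bmp15 lie farthest to the left among the 7.

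The order of the genes by the share left at 6 hpf was much alike in both genotypes. In controls it ran from gdf9 (2.88%), cyp17a1 (3.55%) and bmp15 (3.64%) through npm2a (23.3%), zp3b (34.9%) and zar1 (41.2%) to zp2.5 (82.9%). In mutants bmp15 (21.2%) was lowest, then gdf9 (30.8%), cyp17a1 (40.0%), npm2a (62.7%), zar1 (66.5%), zp3b (68.6%) and zp2.5 (104%). Neighbours in these orders cannot be separated without replicate values. The share was larger in mutants for all 7 genes, as it was for 71.1% of the 8477 genes.

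Ratios between genes of 1 table do not change when the whole table is scaled by 1 factor. Quantile normalization can change them, and only deposited values were used here. gdf9 stood to bmp15 as 1.22, 1.21 and 0.965 in controls at 2, 4 and 6 hpf, and as 1.26, 1.25 and 1.83 in mutants. The pair was thus in nearly the same ratio in 4 tables and differed from it only at 6 hpf. The control ratio there rests on 2 values below 1 RPKM. Without replicate values neither shift at 6 hpf can be told from replicate error. The ratio of zp2.5 to gdf9 was 0.446, 0.608 and 12.8 in controls and 0.414, 0.455 and 1.39 in mutants. It was thus higher at 6 than at 2 hpf in both, though the 12.8 rests on a gdf9 value of 0.686 RPKM. The ratio of cyp17a1 to gdf9 lay between 2.51 and 3.96 in all 6 tables.

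**Figure D4:**
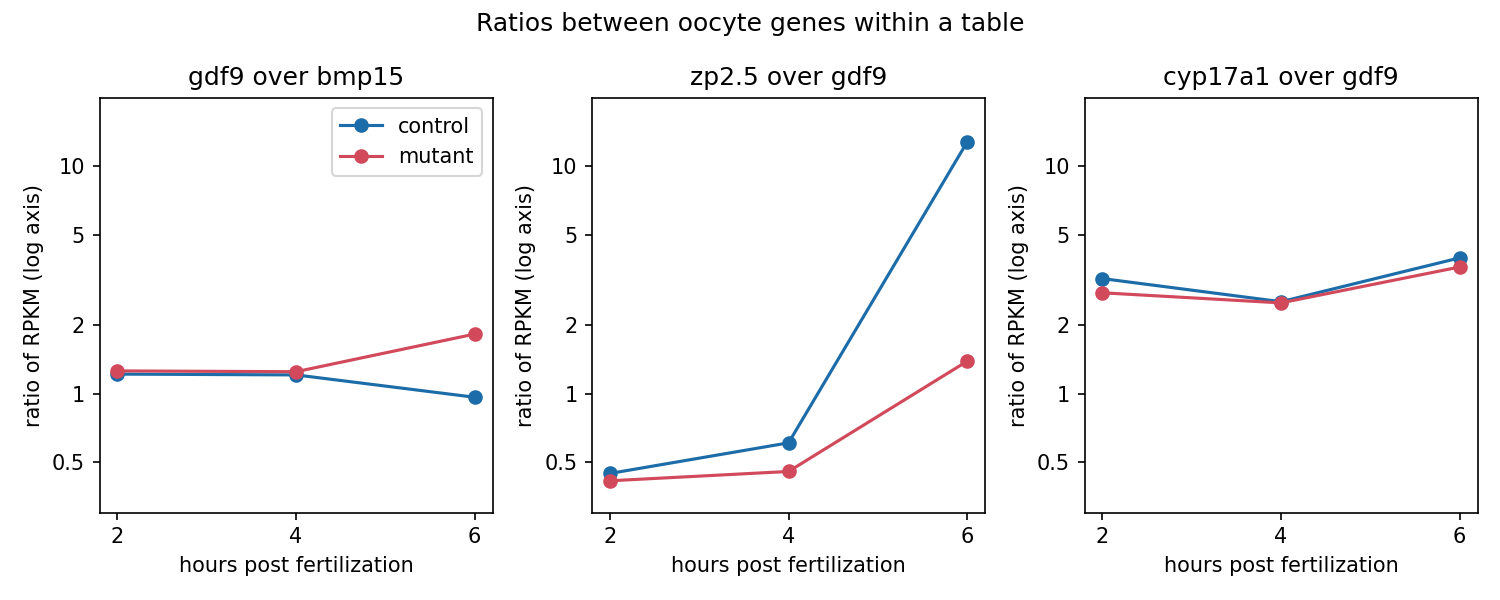
Ratio of RPKM between members of a pair within the same table (log axis) against hours post fertilization, blue for controls and red for mutants. The ratio of zp2.5 to gdf9 reaches 12.8 in controls and 1.39 in mutants at 6 hpf, while that of cyp17a1 to gdf9 stays between 2.51 and 3.96.

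The wider zona pellucida family showed both courses. It had 21 IDs, of which 20, zp3b and zp2.5 among them, passed the filter. At 6 hpf mutants exceeded controls by 1 log2 or more in 7 of the 20 and fell short by as much in 0. Over all genes 18.3% stood above and 8.91% below, and the median difference of the 20 was 0.69. That median was 0.44 with trimmed-mean rescaling and 0.47 with quantile normalization. Without zp3b and zp2.5 it was 7 of 18, with a median of 0.86. The largest differences were those of zp3d.1 (7.82 in controls and 46.8 in mutants), zp3c (4.26 and 17.7), zpax1 (3.98 and 13.7) and zp3d.2 (0.212 and 2.25). At 2 hpf zp3d.1 had been at 99.4 and 68.9, and zp3c at 62.5 and 43.5, so both started lower in mutants and ended higher.

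As deposited, 10 of the 20 had under 50% of their 2 hpf level left at 6 hpf in controls. In these the share left ran from 6.00% to 43.4% in controls and from 20.9% to 105% in mutants, larger in mutants for all 10. In the other 10, which hold zp2.1, zp2.3, zp2.5 and zp2.6, it ran from 52.0% to 199% in controls and from 87.7% to 171% in mutants, larger in 9. Of the 8477 genes with an RPKM of at least 5 in both genotypes at 2 hpf, 71.1% had a larger share in mutants. Picking genes by a low share in controls also favours a larger share in mutants by itself. As deposited, all 7 zona pellucida genes that passed 1 log2 at 6 hpf were in the first class. The class was drawn after the values were seen and uses the same control table, so this is a description. It also depends on the scaling. Trimmed-mean rescaling divides out a log2 factor of -0.71 for controls at 6 hpf, which raises each share left in controls. zp2l1 (33.8% as deposited, log2 difference 1.31) would then leave the first class. zp2.6 had the highest share, with an RPKM of 6.95, 14.8 and 13.8 in controls.

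Other oocyte regulators and stored proteins leaned the same way at 6 hpf. Of 23 that passed the filter, zar1 and npm2a among them, 12 stood above control by 1 log2 or more, against 18.3% of all genes. The count below was 0, against 8.91% of all genes, and the median difference was 1.02. Without the 2 members 10 of 21 stood above, with a median of 0.90. Over the 23, trimmed-mean rescaling gave 11 above and 1 below. The largest differences were those of lsm14b, which encodes a protein of stored RNA granules (11.8 in controls and 147 in mutants), wee2, the oocyte Wee kinase (8.27 and 62.8), btg4, an adaptor of deadenylation (6.16 and 47.8), and patl2, a translational repressor (1.02 and 7.51). The gene npm2b, a second nucleoplasmin, was just past 1 log2 (1.02), with an RPKM of 127, 227 and 132 in controls and 223, 304 and 269 in mutants. Its ratio to npm2a at 6 hpf was 25.0 in controls and 18.0 in mutants, against 5.61 and 9.35 at 2 hpf. zar1l, a relative of zar1, was at 20.7, 29.5 and 3.72 in controls and 11.6, 21.0 and 10.7 in mutants.

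The germ plasm RNAs, another class of egg RNA, stood above control by 1 log2 or more at 6 hpf in 10 of 13 cases. They stood below in 0, and the median was 1.16. Of all genes 18.3% stood above and 8.91% below. With trimmed-mean rescaling or quantile normalization the germ plasm count above was 6, while that of the oocyte genes was 5 of 7 under both. The germ plasm medians were then 0.99 and 0.97, just under the threshold, and zar1 was just over it at 1.08 and 1.05. The contrast in counts thus depends on the cut. Set beside the 5 of 7 and the median of 1.34 above, the values as deposited are near each other, and no difference between them was tested.

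The signalling genes around Bmp15 and Gdf9 went both ways. Of 25 that passed the filter, 3 were above control by 1 log2 or more at 6 hpf and 5 below. Over all genes 18.3% were above and 8.91% below. The median of the 25 was 0.13, and none of the 7 genes is in this list. The median turned to -0.11 with trimmed-mean rescaling and to -0.16 with quantile normalization. Under both, 2 were above and 6 below, and with a pseudocount of 0.1 the counts were 5 and 6. gdf3, the maternal ligand that pairs with Nodal, was at 26.0 in controls and 145 in mutants, and 1 of 2 IDs named furin, a protease that processes such ligands, at 0.650 and 5.75. In contrast, both IDs named smad6, an inhibitory Smad, were lower, at 11.04 and 2.89 and at 2.53 and 0.413. gdf3 and this furin ID had come down from 425 and 6.77 at 2 hpf in controls, whereas both smad6 IDs were lower at 2 hpf (at most 0.943 in either genotype). Both IDs named bmpr2, the type of receptor that binds Bmp15 in mammals, were below the filter, at 0.279 or less in each table.

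In the list of steroid synthesis, RNAs were present for some steps and near 0 for others. Of 14 IDs that passed the filter 5 were higher in mutants by 1 log2 or more at 6 hpf and 0 lower. Over all genes 18.3% were higher and 8.91% lower, and the median of the 14 IDs was 0.54. Trimmed-mean rescaling left 4 higher and put 1 lower, and with no filter on low values the median was 0.04. Besides cyp17a1 these were both IDs named por, the reductase that passes electrons to P450 enzymes (1.32 in controls and 6.26 in mutants, and 4.74 and 14.3), hsd3b7 (0.601 and 3.80) and fdx1, the mitochondrial ferredoxin (42.7 and 94.3). Without cyp17a1, 4 of 13 IDs were higher as deposited, with a median of 0.51. hsd3b2 went the other way and fell just short of the cut (72.2 and 36.0, log2 difference -0.98). At 2 hpf it had been higher in mutants (1.09). cyp17a2, the paralog of cyp17a1, was at 11.2, 10.9 and 2.70 in controls and 12.5, 12.1 and 4.27 in mutants, a log2 difference of 0.51 at 6 hpf against 2.95 for cyp17a1. 1 of 2 IDs named cyp11a1, the enzyme of side-chain cleavage, stood at 72.1, 59.7 and 24.8 in controls and 46.3, 49.8 and 41.8 in mutants. star, which brings cholesterol into mitochondria, was at 0.0349 or less and the aromatase cyp19a1 at 0.0445 or less in each table.

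Ovarian follicle cells, which surround the oocyte, left little trace. Of 10 IDs of their marker genes 2 passed the filter, the highest value was 1.97 (1 of 2 IDs named foxl2), and their summed RPKM ran from 2.43 to 2.81 over the 6 tables. fshr and amh were at 0.236 or less in each table. The higher foxl2 ID was at 0.866 to 1.97 over the 6 tables, and inha reached 1.19 in controls at 6 hpf. In that group bmp15 (0.710) and gdf9 (0.686) were lower than both, so the markers did not lie below all the oocyte RNAs there.

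Genes outside the list with the most similar course were sought over the 6 group values, by the root mean square difference between log2(RPKM + 1) profiles centred on their own mean. The gene nearest to bmp15 was mllt3 (0.0508 log2), at 17.0, 12.2 and 0.517 in controls and 17.2, 16.1 and 3.60 in mutants. After it came b3gnt5 and ppifa. Nearest to gdf9 were dph1 (0.0485), nudt17 and pdss2, and nearest to cyp17a1 were eomes (0.0985), arl6ip5 and lrit3. For zp3b they were arhgef37 (0.0733), cttn and rfng, and for zp2.5 srfbp1 (0.0530), grnb and washc3. For zar1 they were tspan7 (0.0983), tmem14a and tex2, and for npm2a tsc1 (0.0885), znf76 and usp12a. Among the 7 genes the closest pair was gdf9 and cyp17a1, at 0.206, followed by bmp15 and gdf9, at 0.223. With 4874 to 6912 genes searched per member, close neighbours are found for any common course, and 6 values do not make a test.

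**Figure D5:**
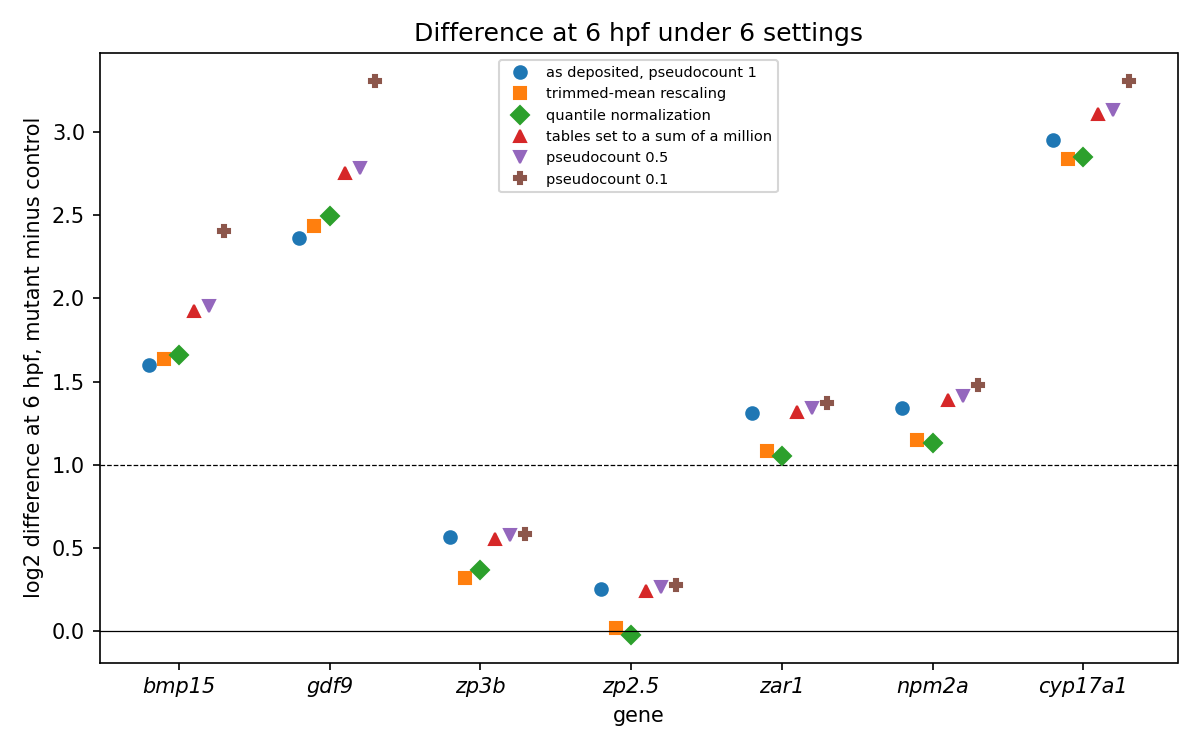
Mutant minus control log2 difference at 6 hpf for each gene under 6 settings of scaling and pseudocount, with a dashed line at 1 log2. The 5 genes above the line stay above it in each setting shown, and zp2.5 lies at 0.25 as deposited and at -0.02 with quantile normalization.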

How the data were processed

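Per the labels' protocols, TRIzol served for extraction from whole embryos, Dynabeads for selecting messenger RNA and a stranded KAPA kit for the libraries. Cutadapt 1.13, Trimmomatic 0.36, HISAT2 2.0.5, SAMtools 1.9 and the build Zv9 are listed without roles, per the submitters' processing notes. How reads were counted, on which annotation and with which strand setting is not given in the sources used. The values are RPKM, which the authors deposited as 6 tables of 1 value per gene, 1 table per genotype and time; the unit and the group are given by the table names. A linear model over 12 libraries needs a value for each of them, so the fallback written beside it in the plan, differences by size, was used.

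Genes that reached 1 RPKM in 1 or more of the 6 tables were kept, and log2(RPKM + 1) was compared with a threshold of 1 log2, which understates differences of low genes. Symbols, written in lower case, came from a table of gene IDs that covered 21939 of 33737 IDs. Where a list symbol ended in a duplicate's letter that this table lacks, all IDs under the shorter symbol were used. Up to 4 genes per list, those with the largest mutant difference at 6 hpf, were named, and further ones (npm2b, zar1l, hsd3b2, cyp17a2, cyp11a1, star, cyp19a1, bmpr2 and zp2.6) were chosen after their values were seen. Similar genes had an RPKM of at least 5 in their highest table, within 4-fold of the member's, and the nearest 3 are given. The 7 genes and all lists were chosen with earlier results of these data known.

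Depths were recovered on the assumption that a value is the plain mean of 2 libraries of whole reads. Python 3.11.15, numpy 2.4.6, pandas 2.3.3 and matplotlib 3.10.9 were used. Alternatives were trimmed-mean rescaling, quantile normalization, tables set to a common sum, pseudocounts of 0.1 and 0.5, no filter, a filter on 2 tables and IDs of 1 symbol summed.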

Additional observations from a re-analysis of the deposited data

How the results depend on the processing

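Of 560 values (70 differences of the 7 genes under 8 alternatives) 546 stayed on the same side of 1 log2 and 14 did not; 0 that passed 1 log2 changed direction. The count of genes higher in mutants at 6 hpf was 5 under all 8. The count lower in mutants from 4 to 6 hpf was 4 as deposited and 2 with trimmed-mean rescaling and with quantile normalization, where npm2a and cyp17a1 no longer passed; the rescaling divides out a log2 factor of -0.45 for mutants and -0.71 for controls at 6 hpf. The counts lower in controls from 2 to 6 hpf (6) and from 4 to 6 hpf (5) were both 4 with rescaling, and the count lower in mutants from 2 to 6 hpf (3) was 2. With a pseudocount of 0.1 the difference at 6 hpf was 2.41 for bmp15, 3.31 for gdf9 and 3.31 for cyp17a1. No paired analysis was possible because each table holds 1 value for its 2 samples, and for the same reason no replicate could be left out. Without replicate values, only differences of several fold should be read from single genes.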

Other observations

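Few egg RNAs of the lists passed 1 log2 between genotypes at 2 hpf, and the counts were near the shares over all genes. Mutants had more of npm2b (127 RPKM in controls and 223 in mutants) and zp3d.2 (3.53 and 6.46), by under 1 log2. In the zona pellucida list 0 genes passed 1 log2 upward and 1 downward, as in the oocyte regulator list. In the steroid list 1 passed upward (hsd3b2) and 0 downward. Of the 17053 genes, 4.14% passed it upward and 3.34% downward. The RNAs named next had less in mutants at 2 hpf. zp3f.1 was at 60.6 (control) and 28.9 RPKM (mutant) at 2 hpf and at 79.4 and 39.4 at 4 hpf, but at 26.3 and 30.3 at 6 hpf. cpeb1, the oocyte regulator that passed 1 log2 downward, was at 73.7 and 27.9 at 2 hpf. zpd was at 12.2 and 6.52 at 2 hpf, and mos, the kinase that holds the mature egg in meiosis, at 43.9 and 23.9. figla, a transcription factor of the oocyte, was at 1.53 and 0.165 at 4 hpf. These genes were chosen after their values were seen, and with 1 value per group their replicate error is unknown.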
